A study of Mus musculus with 11 samples.

Results

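The expression of 10 genes was followed in the pancreas and in adipose tissue of mice with obesity-related, alcohol-induced acute pancreatitis (OA-AP). The 10 genes were Hif1a, which encodes the oxygen-regulated subunit of the transcription factor HIF-1, and 9 genes of glucose uptake and glycolysis, Slc2a1, Hk1, Hk2, Pfkfb3, Pfkl, Aldoa, Pgk1, Ldha and Pkm. They were chosen by gene symbol. These genes and the further gene lists below were chosen with earlier results of these data known. Their shares of called genes beside those of all tested genes are therefore description only. All 10 were found among the 54532 genes of the pancreas table and among the 46078 genes of the adipose table, and all 10 passed the filter on low counts in both tissues. The pancreas table held a further Aldoa row under another identifier, with 9 reads over all libraries, which was not used. All mice were wild-type animals with a labelled age of 16 weeks, of the strain labelled C57BL/6 and named C57BL/6J in the study's methods. For 12 weeks control mice ate normal chow and OA-AP mice a high-fat diet. Controls then received saline and OA-AP mice ethanol at 2 g/kg, in each case as 2 intraperitoneal injections 1 h apart. Tissue was taken 12 h after the first injection. Bulk RNA was sequenced in 5 pancreas libraries, 2 control and 3 OA-AP, and in 6 libraries of epididymal fat, 3 of each group. Diet and ethanol differed together between the groups, so their parts in any difference cannot be told apart. The labels do not say whether each library came from a separate animal, or whether same-numbered pancreas and adipose libraries came from one mouse, so that the p-values measure the spread between these libraries.

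Glycolysis breaks glucose down to pyruvate in the cytosol and yields ATP without oxygen. Glucose enters through carriers such as the one encoded by Slc2a1, is trapped by hexokinases, is committed to the pathway by phosphofructokinase-1, and is finally turned into pyruvate by pyruvate kinase. Lactate dehydrogenase converts pyruvate to lactate and restores the NAD+ that the pathway needs. HIF-1 is a dimer of HIF-1α and ARNT. When oxygen is present, prolyl hydroxylases mark HIF-1α for destruction through the VHL complex, and when oxygen is low the protein persists and activates genes of glucose uptake, glycolysis and lactate production. The regulation acts mainly on the protein, which was not measured here. In fat cells most insulin-dependent glucose uptake runs through another carrier, encoded by Slc2a4.

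HIF-1 binds a short core, ACGTG or GCGTG. These letters were searched on both strands in RefSeq promoter windows of the GRCm38.p6 assembly, which run from 250 bases before to 50 bases after a transcription start. At least 1 window of each of the 10 genes held a match, as did 13 of their 16 windows in all (81.2%), against 43.8% of the 32817 windows of that length in the table. ACGTG alone was in 19.6% of all windows and GCGTG alone in 32.4%. Of the 3 Aldoa windows, 2 overlap and hold the same single match, which is counted in each. Both cores contain CG. The windows of the 10 genes were 51.3% to 69.7% G and C, and this share was not measured over all windows. The 250 bases before the start are shown for Hif1a itself and for Slc2a1, Pfkfb3, Pgk1 and Ldha, on which the results below turn, written 5′ to 3′ on the strand of the gene, with each match in capitals. A palindromic CACGTG holds 2 overlapping matches.
Hif1a, chr12:73907617-73907866, plus strand: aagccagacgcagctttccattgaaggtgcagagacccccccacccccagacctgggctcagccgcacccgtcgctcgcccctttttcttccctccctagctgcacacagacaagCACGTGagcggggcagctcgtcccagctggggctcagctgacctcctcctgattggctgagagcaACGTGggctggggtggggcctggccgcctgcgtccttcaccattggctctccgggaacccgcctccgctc
Slc2a1, chr4:119108495-119108744, plus strand: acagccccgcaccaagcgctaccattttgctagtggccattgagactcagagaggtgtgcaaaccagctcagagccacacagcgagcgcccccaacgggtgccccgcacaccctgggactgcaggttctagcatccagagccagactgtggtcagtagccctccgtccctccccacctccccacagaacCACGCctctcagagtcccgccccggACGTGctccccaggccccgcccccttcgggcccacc
Pfkfb3, downstream start, chr2:11502091-11502340, minus strand: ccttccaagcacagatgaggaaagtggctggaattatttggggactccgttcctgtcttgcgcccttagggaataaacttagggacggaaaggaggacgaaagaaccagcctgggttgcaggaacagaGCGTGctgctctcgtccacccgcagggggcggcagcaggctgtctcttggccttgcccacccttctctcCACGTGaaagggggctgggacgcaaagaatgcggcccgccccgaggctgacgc
Pfkfb3, upstream start, chr2:11553930-11554179, minus strand: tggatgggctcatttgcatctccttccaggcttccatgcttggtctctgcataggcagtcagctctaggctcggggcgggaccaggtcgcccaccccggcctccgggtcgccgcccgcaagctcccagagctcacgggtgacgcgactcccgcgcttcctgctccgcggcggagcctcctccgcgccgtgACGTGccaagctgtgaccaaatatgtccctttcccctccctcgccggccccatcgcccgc
Pgk1, chrX:106186850-106187099, plus strand: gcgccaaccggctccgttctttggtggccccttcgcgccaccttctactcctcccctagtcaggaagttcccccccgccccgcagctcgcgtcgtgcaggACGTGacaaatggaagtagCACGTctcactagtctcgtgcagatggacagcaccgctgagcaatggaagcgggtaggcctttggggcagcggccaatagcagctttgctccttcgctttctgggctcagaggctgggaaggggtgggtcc
Ldha, upstream start, chr7:46845554-46845803, plus strand: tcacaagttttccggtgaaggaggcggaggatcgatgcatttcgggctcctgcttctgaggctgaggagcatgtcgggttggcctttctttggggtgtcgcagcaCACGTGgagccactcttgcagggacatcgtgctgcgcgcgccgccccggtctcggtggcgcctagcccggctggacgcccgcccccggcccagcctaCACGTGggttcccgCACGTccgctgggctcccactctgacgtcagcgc
The 250 bases before the upstream Ldha start held 5 matches, the largest number among the windows shown. Hif1a, the gene of the factor itself, and the downstream Pfkfb3 start held 3 each, with a palindrome counted as 2. A match is a run of letters and not a measured binding site, and no binding data were used here.

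The pancreas libraries held 14188832 to 17238919 reads on genes and the adipose libraries 20825177 to 27928097. The 10 genes took 0.0159% to 0.0309% of the reads in the pancreas and 0.318% to 0.388% in adipose tissue. Expression is given as CPM, counts per library total on a common scale after TMM scaling within a tissue, a scaling that equalises the bulk of genes between libraries. A gene was called when its Benjamini-Hochberg adjusted p-value from edgeR's quasi-likelihood test was under 0.05 and its fold change at least 1.5. Fold changes are OA-AP over control on the log2 scale, each with its standard error (SE). The TMM scaling matters most in the pancreas, where 20 acinar genes such as Prss2 and Cela1 took 69.5% to 71.4% of control reads and 53.4% to 56.5% of OA-AP reads. With library totals alone, the median log2 fold change over all tested genes moved from 0.04 to 0.75 in the pancreas and from -0.01 to -0.17 in adipose tissue.

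In the pancreas Ldha and Pfkfb3 rose and Aldoa fell, while the other 7 genes did not pass the test. Without either control library, the call of Ldha alone remained. In adipose tissue Hif1a, Slc2a1, Pgk1, Ldha and Pkm rose and Pfkfb3 fell. Ldha thus rose in both tissues, and Pfkfb3 moved in opposite directions. The 3 called genes of 10 in the pancreas (30.0%) stand beside a background of 29.8% of 12884 tested genes, 16.2% higher and 13.5% lower. The 6 called genes of 10 in adipose tissue (60.0%) stand beside 25.1% of 15839 tested genes, 12.1% higher and 13.0% lower. The median log2 fold change of the 10 genes was 0.00 in the pancreas, against 0.04 over all tested genes, and 0.50 in adipose tissue, against -0.01. The CPM of the groups did not overlap for 4 of the 10 genes in the pancreas, where this held for 62.3% of tested genes, and for 8 of the 10 in adipose tissue, where it held for 52.4%. In bulk tissue, fewer cells of a type and less RNA per cell cannot be told apart.

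**Figure D1:**
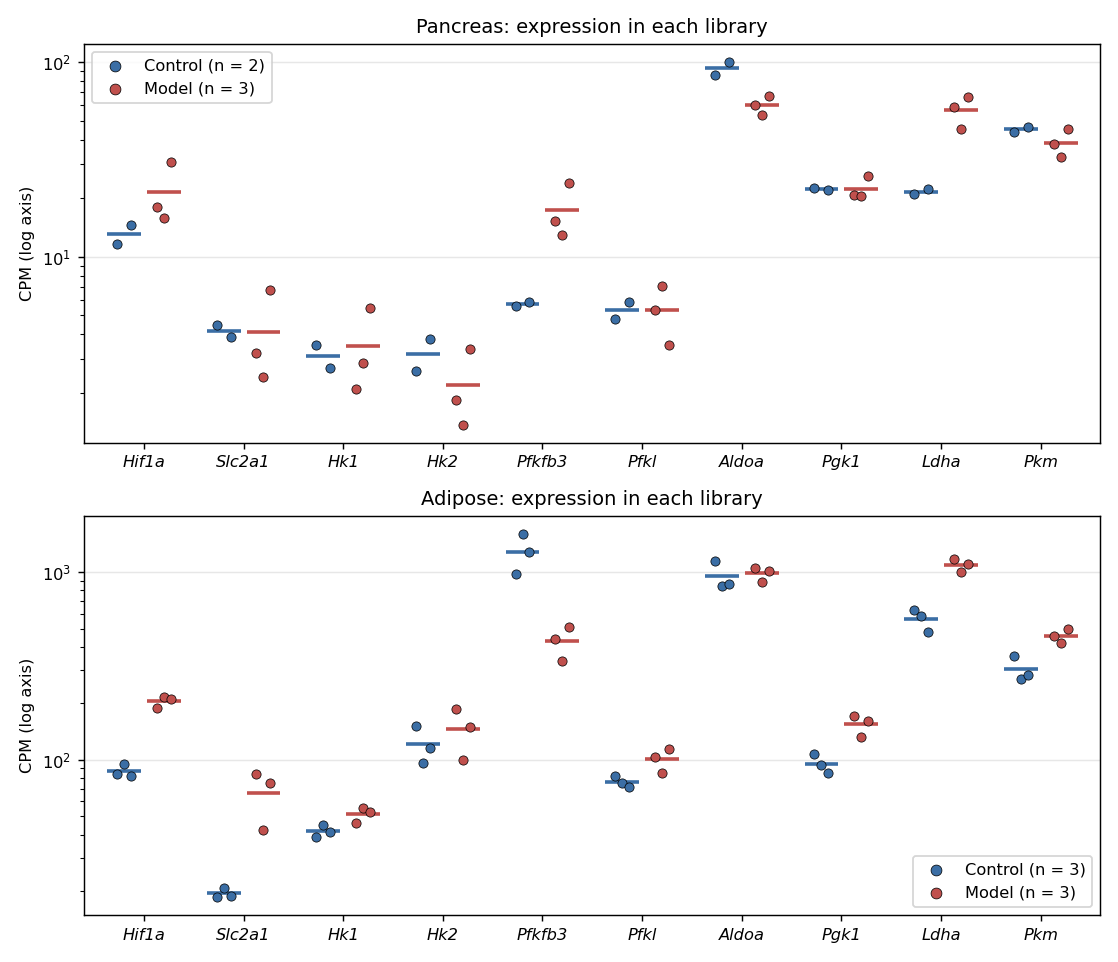
CPM of each of the 10 genes in every library (log axis), with control libraries in blue, OA-AP (Model) libraries in red and the group mean as a bar. In the pancreas the Ldha points move from 20.9 and 22.3 to between 45.2 and 66.5, and in adipose tissue the Pfkfb3 points move from between 972 and 1588 down to between 335 and 509.

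Hif1a rose in adipose tissue. It stood at 84.2, 95.2 and 82.4 CPM in the control libraries and at 188, 215 and 209.9 CPM in the OA-AP libraries. Every OA-AP library was above every control library, and the spread within each group was small beside the gap. The log2 fold change was 1.23 ± 0.10 (SE, adjusted p = 0.000537), which is 2.34-fold. In the pancreas Hif1a was at 11.6 and 14.7 CPM in the controls and at 18.1, 15.9 and 30.5 CPM in the OA-AP libraries. These groups did not overlap either, but the gap between them was small and OA-AP replicate 3 stood well above the other two. The change of 0.72 ± 0.30 did not pass the test (adjusted p = 0.105). Without OA-AP replicate 3 it was 0.33 (adjusted p = 0.118), and without OA-AP replicate 2 it was 0.89 and passed (adjusted p = 0.0374). With no filter on low counts it was 0.79 and passed (adjusted p = 0.000199). With library totals alone it was 1.41 and passed (adjusted p = 0.00095), beside a median of 0.75 over all genes.

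OA-AP replicate 3 of the pancreas also stood apart in its neutrophil genes. The summed level of 10 neutrophil markers was 1.12 and 1.89 CPM in the controls and 14.1, 3.60 and 102 CPM in the OA-AP libraries, replicate 3 being the highest. edgeR called 0 of the 6 markers tested, with 1 at an unadjusted p under 0.05, whereas DESeq2 called 5 of 6, and Retnlg, Ly6g, Mpo and Elane had no read in either control library. The same OA-AP library had the highest Hif1a, Slc2a1, Hk1, Hk2, Pfkfb3, Aldoa, Pgk1, Ldha and Pkm of its group, so 9 of the 10 genes, and the lowest Pfkl. How many of all genes were highest in that library was not counted. The library also had the highest sums of macrophage (123 against 69.1 and 70.6 CPM), duct, endothelial, adipocyte, red blood cell and acinar markers. Its sums of fibroblast (80.3 against 112 and 132 CPM), mesothelial, and T and B cell markers were the lowest of the group. In the pancreas 14 of 20 acinar markers were called lower, beside 13.5% of all tested genes. The part of these cells in the pancreatic values was not tested. In adipose tissue 6 of 7 tested neutrophil markers were called higher and 1, Elane, lower, and the sum of the list was 9.93 to 16.3 CPM in the controls and 179 to 199 CPM in OA-AP. Of 10 macrophage markers there, 5 were called higher and 1 lower, with a sum of 1010 to 1298 CPM against 1341 to 1759 CPM. Adipocyte markers summed to 47830 to 50788 CPM in the controls and 36641 to 42865 CPM in OA-AP, with 3 of 9 called lower and 1 higher. Fibroblast markers were called lower for 5 of 7, with a sum of 3359 to 4242 CPM in the controls and 2028 to 2497 CPM in OA-AP. Of 7 tested markers of T and B cells 4 were called lower, with sums that overlapped, at 82.9 to 503 CPM against 22.7 to 109 CPM. Of 5 red blood cell markers 2 were called higher, and of 5 duct cell markers 1. The adipose counts of each cell type stand beside 12.1% of all tested genes called higher and 13.0% called lower. The marker lists were not tested against these shares. The part of these cells in the adipose changes given here was not tested. Adipose control replicate 2 held 0.932% of its reads on the acinar genes, against at most 0.00186% in every other adipose library.

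Of the genes that surround HIF-1α, Epas1, which encodes the related HIF-2α, rose in adipose tissue. It stood at 580.4, 608 and 705 CPM in the controls and at 1095, 954 and 1134 CPM in OA-AP (log2 fold change 0.75 ± 0.14, adjusted p = 0.00643). Among the reads per kb of the 3 HIF alpha genes in adipose tissue, Hif1a took 11.3%, 12.3% and 9.46% in the controls and 13.4%, 16.5% and 14.2% in OA-AP, and Epas1 took 87.8% ± 1.77 (SD, n = 3) and 84.4% ± 2.75 (SD, n = 3). In the pancreas Egln2, a prolyl hydroxylase of the HIF alpha subunits, went from 29.3 and 28.7 CPM to 53.7, 55.3 and 53.6 CPM (0.90 ± 0.12, adjusted p = 0.00145). Hif1an, the asparagine hydroxylase that blocks HIF from its coactivators, went from 15.8 and 17.5 CPM to 29.6, 28.9 and 31.8 CPM (0.85 ± 0.14, adjusted p = 0.00306). Crebbp, a coactivator, rose by 0.73 ± 0.18 (adjusted p = 0.0185), a call lost without control replicate 2 (adjusted p = 0.151) and without OA-AP replicate 1. Over the list of HIF subunits and regulators, 3 of 14 tested genes were called in the pancreas and 1 of 16 in adipose tissue, all of them higher. These shares, 21.4% and 6.25%, stand beside 29.8% and 25.1% of all tested genes, and no test of the list was made.

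Slc2a1, the gene of the glucose carrier GLUT1, rose in adipose tissue. The control libraries were close together at 18.6, 20.8 and 18.9 CPM, and the OA-AP libraries lay at 83.6, 42.0 and 74.9 CPM. All 3 OA-AP libraries were above the controls, though replicate 2 rose less than the others. The log2 fold change was 1.78 ± 0.25 (adjusted p = 0.00281), or 3.44-fold. Slc2a4, the gene of the insulin-responsive carrier GLUT4, fell in the same libraries from 239, 134 and 158 CPM to 73.7, 61.8 and 60.7 CPM (-1.44 ± 0.22, adjusted p = 0.00351). Of the reads per kb on the 4 class I carriers, Slc2a1 held 6.78%, 12.5% and 10.02% in the controls and 48.4%, 35.3% and 50.9% in OA-AP. The share of Slc2a4 went from 84.5% ± 3.18 (SD, n = 3) to 45.6% ± 5.82 (SD, n = 3). Both shares separated the groups in full, with p = 0.1 by the two-sided exact permutation test, the smallest that 3 against 3 libraries allow. Over the 18 shares tested in both tissues, a p of 0.1 became 0.225 and a p of 0.2 became 0.3 after adjustment. No isozyme family was set for Pgk1, so it had no share.

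In the pancreas Slc2a1 was low, at 4.46 and 3.89 CPM in the controls and at 3.20, 2.40 and 6.75 CPM in OA-AP. The groups overlapped, and the log2 fold change was -0.02 ± 0.44 (adjusted p = 0.979). What changed there was Slc2a2, the gene of GLUT2, which fell from 4.12 and 4.99 CPM to 1.42, 0.915 and 0.732 CPM (-2.14 ± 0.37, adjusted p = 0.00394). Slc2a10 rose from 1.37 and 0.897 CPM to 3.52, 3.49 and 3.40 CPM (1.59 ± 0.35, adjusted p = 0.0101). Slc2a3, the gene of GLUT3, was called higher as well, from 2 and 1 reads in the controls to 14, 11 and 24 reads in OA-AP, too few for a firm size, and 5 of 11 alternative fits lost the call (adjusted p up to 0.186). Without control replicate 2 the calls of Slc2a2 (adjusted p = 0.0527) and Slc2a10 (adjusted p = 0.091) were lost as well. Over the 8 tested carriers outside the 10 genes, 2 were called higher and 1 lower in the pancreas (37.5%, beside 29.8% of all tested genes), and 3 were called in adipose tissue (37.5%, beside 25.1%), all lower, where Slc2a9 (-0.64 ± 0.16, adjusted p = 0.0189) and Slc2a12 (-0.66 ± 0.20, adjusted p = 0.0376) joined Slc2a4. Of 13 alternative fits, 5 lost the call of Slc2a9 and 6 that of Slc2a12, with adjusted p up to 0.0774 and 0.122, whereas Slc2a4 kept its call in each.

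The hexokinase genes Hk1 and Hk2 were not called in either tissue. In adipose tissue Hk1 stood at 38.9, 44.7 and 41.1 CPM in the controls and at 45.8, 55.5 and 52.6 CPM in OA-AP, a small step without overlap (0.31 ± 0.10, adjusted p = 0.053). Hk2, the insulin-responsive isozyme of fat and muscle, varied as much within the groups as between them, at 152, 96.4 and 116 CPM against 185, 100.2 and 150.0 CPM (0.26 ± 0.25, adjusted p = 0.454). It was nevertheless the main hexokinase gene of the fat, with 74.05% ± 6.91 (SD, n = 3) of the reads per kb on the 5 hexokinase genes in the controls and 73.5% ± 8.35 (SD, n = 3) in OA-AP. In the pancreas, Hk1 was at 3.52 and 2.69 CPM in the controls and at 2.10, 2.86 and 5.44 CPM in OA-AP (0.16 ± 0.44, adjusted p = 0.81). Hk2 was at 2.57 and 3.79 CPM against 1.84, 1.37 and 3.35 CPM (-0.53 ± 0.44, adjusted p = 0.377). Both groups overlapped for both genes, which rested on 24 to 104 reads per library. Without OA-AP replicate 3, Hk2 was called lower (-1.02, adjusted p = 0.0372).

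Pfkfb3 gave the largest contrast between the tissues. Its product makes fructose 2,6-bisphosphate, the strongest activator of phosphofructokinase-1. In the pancreas it rose from 5.58 and 5.88 CPM to 15.3, 12.9 and 24.0 CPM, so that the lowest OA-AP library was above both controls. The log2 fold change was 1.60 ± 0.29 (adjusted p = 0.00518), or 3.04-fold. In adipose tissue it was among the most abundant of the 10 genes and fell from 972, 1588 and 1285 CPM to 439, 335 and 509 CPM, again with no overlap. There the change was -1.58 ± 0.23 (adjusted p = 0.00281). The adipose value kept its call in 13 of 13 alternative fits and the pancreatic value in 10 of 12. It lost the call without control replicate 1 (adjusted p = 0.0651) and without control replicate 2 (adjusted p = 0.0615).

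Within its family of 4 isozyme genes, Pfkfb3 held 39.4% and 37.7% of the reads per kb in the control pancreas and 73.0%, 68.9% and 80.3% in OA-AP. The complement was mostly Pfkfb2, which dropped from 43.2% ± 2.99 (SD, n = 2) to 14.6% ± 1.77 (SD, n = 3) of the family. The difference had an exact permutation p of 0.1, the smallest for 2 against 3 libraries. In adipose tissue the Pfkfb3 share overlapped between the groups, at 81.8%, 91.3% and 87.8% against 79.8%, 75.0% and 83.6% (exact permutation p = 0.2). Pfkfb1, the isozyme gene of liver and muscle, fell as well. It went from 99.6, 65.1 and 82.0 CPM to 37.1, 33.1 and 24.0 CPM (-1.39 ± 0.21, adjusted p = 0.00339). Pfkfb4 rose, from 10.5, 12.1 and 7.999 CPM to 21.4, 26.6 and 30.7 CPM (1.37 ± 0.19, adjusted p = 0.00256), and its share of the family went from 1.10% ± 0.261 (SD, n = 3) to 7.69% ± 1.61 (SD, n = 3). The Pfkfb3 locus overlaps the antisense gene Gm10851, which had at most 536 reads in an adipose library. It also overlaps Gm37975 on the same strand, which had at most 158 reads in an adipose library. The source of reads in the stretch shared with Gm10851 cannot be told without strand, and strand would not separate Gm37975.

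Pfkl, the liver-type subunit of phosphofructokinase-1, was not called in the pancreas, at 4.81 and 5.88 CPM in the controls and 5.36, 7.09 and 3.50 CPM in OA-AP (-0.01 ± 0.32, adjusted p = 0.989). In adipose tissue it stood at 81.6, 75.5 and 72.0 CPM against 104, 85.5 and 114 CPM, without overlap. The adjusted p of 0.0376 passed there, but the change of 0.40 ± 0.12 was under 1.5-fold. The muscle-type subunit gene Pfkm fell in both tissues. It went from 11.2 and 10.5 CPM to 1.57, 2.35 and 2.77 CPM in the pancreas (-2.28 ± 0.27, adjusted p = 0.000763) and from 28.4, 22.8 and 27.3 CPM to 8.03, 13.9 and 8.64 CPM in adipose tissue (-1.36 ± 0.22, adjusted p = 0.0043). The share of Pfkl among the 3 subunit genes accordingly went from 18.7% ± 2.49 (SD, n = 2) to 44.2% ± 11.2 (SD, n = 3) in the pancreas (exact permutation p = 0.2) and from 45.3% ± 1.21 (SD, n = 3) to 63.2% ± 8.39 (SD, n = 3) in adipose tissue (exact permutation p = 0.1). In both tissues the shares of the groups did not overlap.

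Aldoa, the main aldolase gene, fell in the pancreas from 86.3 and 100.2 CPM to 60.4, 53.8 and 67.2 CPM. The groups did not overlap, and the log2 fold change was -0.63 ± 0.14 (adjusted p = 0.0132), although with library totals alone it was 0.09. The call was also lost without either control library (adjusted p = 0.0601 and 0.143) and without OA-AP replicate 1 (adjusted p = 0.0638). With no filter on low counts and without OA-AP replicate 2 the change was -0.55 and under 1.5-fold, so that 6 of 12 alternative fits lost the call. In adipose tissue Aldoa was at 1152, 843 and 863 CPM in the controls and at 1057, 890.2 and 1015 CPM in OA-AP (0.05 ± 0.16, adjusted p = 0.824), with the groups overlapping. It held 96.3% ± 1.57 (SD, n = 2) of aldolase reads per kb in the control pancreas and 91.3% ± 3.17 (SD, n = 3) in OA-AP (exact permutation p = 0.2).

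Pgk1, which encodes the enzyme of the first ATP-yielding step, rose in adipose tissue from 107, 93.4 and 85.0 CPM to 171, 132 and 160.3 CPM. All OA-AP libraries were above all controls (0.70 ± 0.13, adjusted p = 0.00756, 1.62-fold), although with library totals alone the change of 0.54 was under 1.5-fold. In the pancreas it was at 22.5 and 22.0 CPM in the controls and at 20.9, 20.4 and 25.9 CPM in OA-AP (0.01 ± 0.16, adjusted p = 0.97), and with library totals alone it was called higher, at 0.71 (adjusted p = 0.00612). Pkm, the pyruvate kinase gene of most tissues, rose in adipose tissue from 358, 271 and 284 CPM to 455, 419.5 and 499 CPM. The groups did not overlap, but the change of 0.59 ± 0.14 (adjusted p = 0.018) lay just at the 1.5-fold limit, and 6 of 13 alternative fits lost the call. In the pancreas Pkm was at 43.9 and 46.4 CPM against 37.8, 32.5 and 45.1 CPM, with overlap (-0.23 ± 0.16, adjusted p = 0.301, and 0.47 with library totals alone). Pklr, the liver and red cell pyruvate kinase gene, fell there from 2.57 and 2.59 CPM to 0.472, 0.343 and 0.366 CPM (-2.69 ± 0.41, adjusted p = 0.00238). These levels are too low for a firm size of the fall. The Pkm share of pyruvate kinase reads per kb thus went from 91.7% and 92.0% to 98.1%, 98.4% and 98.8% in the pancreas (exact permutation p = 0.1). This shift rests on the same low Pklr levels.

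Ldha was the gene of the set that rose in both tissues. It encodes the M subunit of lactate dehydrogenase, the form that favours lactate production. In the pancreas it went from 20.9 and 22.3 CPM to 59.0, 45.2 and 66.5 CPM, and in adipose tissue from 625, 583 and 481 CPM to 1178, 1001 and 1108 CPM. No OA-AP library reached down to a control library in either tissue. The log2 fold changes were 1.40 ± 0.19 in the pancreas (adjusted p = 0.00133, 2.63-fold) and 0.96 ± 0.15 in adipose tissue (adjusted p = 0.00326, 1.95-fold). The call held in 12 of 12 alternative fits in the pancreas, with values of 1.22 to 2.10, and in 13 of 13 in adipose tissue, with values of 0.81 to 1.05. A threshold of 2-fold in place of 1.5 would drop the adipose call. The difference between the tissues, -0.45 ± 0.24, did not pass (adjusted p = 0.213), and was -1.29 and passed with library totals alone (adjusted p = 0.00121).

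Ldhb, the gene of the H subunit found in oxidative tissues, moved the other way in the pancreas, from 3.78 and 3.89 CPM to 1.47, 1.66 and 1.57 CPM (-1.29 ± 0.30, adjusted p = 0.0134). The Ldha share of the pair therefore went from 72.5% and 73.1% to 95.01%, 92.8% and 95.3% in the pancreas. In adipose tissue it went from 79.3%, 81.3% and 79.1% to 90.5%, 90.7% and 90.0%. Both differences had an exact permutation p of 0.1, the smallest their designs allow.

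**Figure D2:**
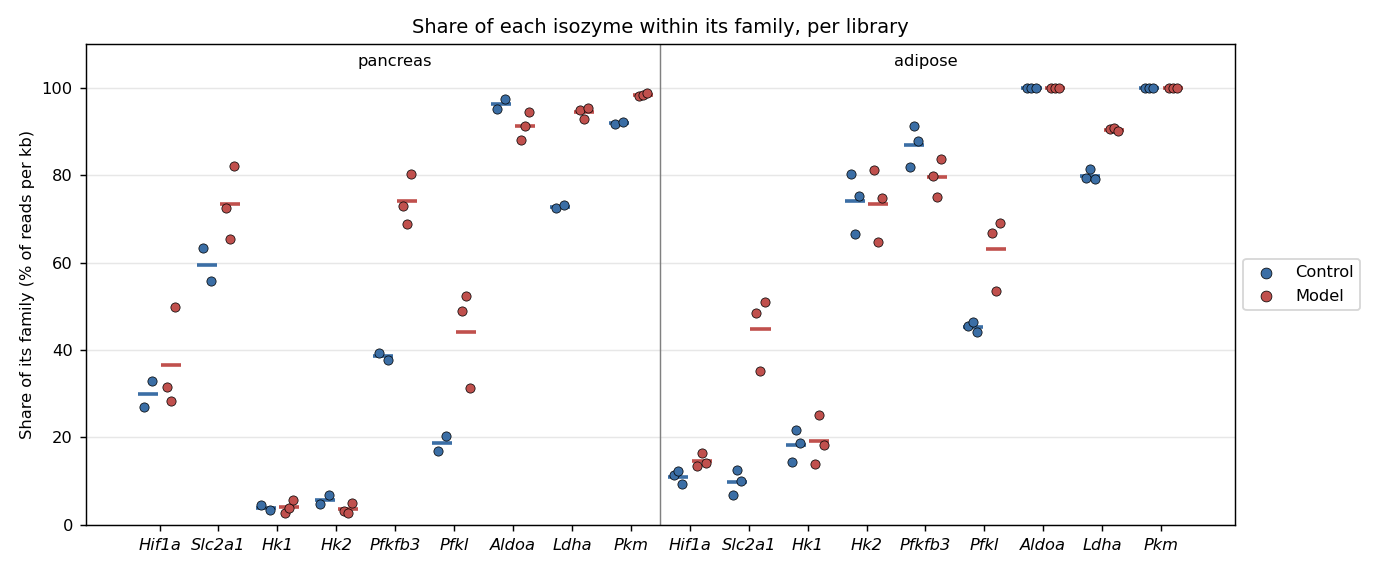
Share of each of 9 genes within its isozyme family, in percent of the family's reads per kb of gene length, for every library, with control in blue, OA-AP (Model) in red and the group mean as a bar. The Ldha share separates the groups in both tissues, Pfkfb3 in the pancreas moves from 38.5% to 74.03% on average, and Slc2a1 in adipose tissue from 9.76% to 44.8%.

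The tissue by condition term asked whether the change of a gene differed between adipose tissue and pancreas. It compares changes within each tissue, but joins tables that were counted apart with different gene lists. The part of the counting in these differences was not tested. Of the 10 genes, 4 passed at an adjusted p under 0.05 (40.0%), against 21.3% of the 17046 genes in that fit. These were 10.8% with a higher and 10.5% with a lower log2 fold change in adipose tissue than in the pancreas. Pfkfb3 differed by -3.20 ± 0.40 on the log2 scale (adjusted p = 0.000279), from a rise in the pancreas to a fall in adipose tissue. Slc2a1 differed by 1.78 ± 0.54 (adjusted p = 0.0373), Pkm by 0.81 ± 0.22 (adjusted p = 0.0225) and Pgk1 by 0.68 ± 0.20 (adjusted p = 0.0342), all with the larger change in adipose tissue, although with library totals alone Pkm was at -0.03 and Pgk1 at -0.16. Aldoa (0.66 ± 0.23, adjusted p = 0.0566), Hif1a (0.50 ± 0.32, adjusted p = 0.303) and Ldha did not pass, although Aldoa passed in 5 of 17 alternatives, with adjusted p of 0.0136 to 0.0474, and Hif1a in 1, without pancreas OA-AP replicate 3 (adjusted p = 0.00749). Of the 4 genes that passed, only Pfkfb3 did so in 17 of 17 alternatives, and the other 3 in 6, 9 and 7 of 17 for Slc2a1, Pkm and Pgk1. The count fell to 1 when any of adipose control replicates 2 or 3, adipose OA-AP replicate 3, pancreas control replicates 1 or 2, or pancreas OA-AP replicate 1 was left out, to 2 without adipose OA-AP replicate 1 or pancreas OA-AP replicate 2, and it rose to 6 without pancreas OA-AP replicate 3.

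**Figure D3:**
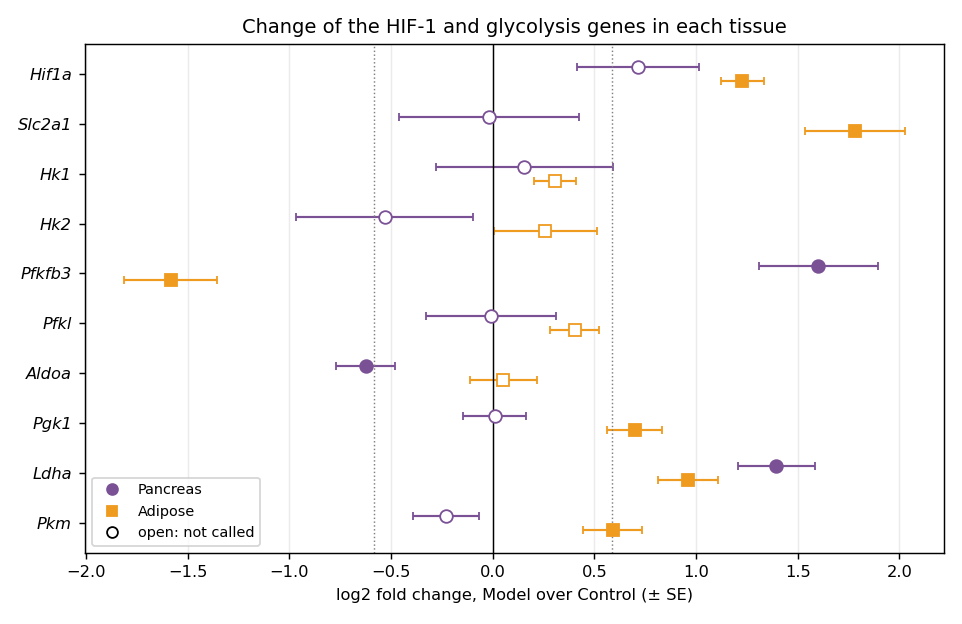
Log2 fold change of OA-AP over control for each gene in the pancreas (circles) and adipose tissue (squares), with bars of 1 SE, filled symbols for called genes and dotted lines at 1.5-fold. Pfkfb3 lies at 1.60 in the pancreas and at -1.58 in adipose tissue, while Ldha lies at 1.40 and 0.96, changes under TMM scaling.

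Levels were compared between genes as CPM per kb of the deposited gene length. In the control pancreas Aldoa led at 32.0 ± 3.37 (SD, n = 2), followed by Pgk1 at 9.92 ± 0.141, Pkm at 9.03 ± 0.344, Ldha at 6.54 ± 0.298, Hif1a at 2.23 ± 0.369 and Slc2a1 at 1.19 ± 0.116 CPM per kb. Pfkl, Pfkfb3, Hk2 and Hk1 followed at 0.801, 0.758, 0.533 and 0.364 CPM per kb, and of all neighbours in this order only Pfkl and Pfkfb3 overlapped. In OA-AP, Ldha came next after Aldoa, at 17.2 ± 3.27 (SD, n = 3) and overlapped Aldoa at 20.8 ± 2.30 CPM per kb. Every neighbouring pair from Hif1a downward overlapped in that group. In control adipose tissue Aldoa led at 327 ± 59.4 (SD, n = 3), Ldha and Pfkfb3 followed at 170.0 ± 22.4 and 169.5 ± 40.7 and overlapped, and Pkm and Pgk1 came next at 60.8 ± 9.47 and 42.4 ± 4.91 CPM per kb. The lowest were Hk2 at 20.3, Hif1a at 14.8, Pfkl at 11.4, Slc2a1 at 5.55 and Hk1 at 4.87 CPM per kb, where only Hk2 and Hif1a overlapped. In OA-AP fat, Ldha reached 331 ± 27.0 (SD, n = 3) and overlapped Aldoa at 339 ± 29.8, whereas Pfkfb3 fell behind Pkm and Pgk1, at 56.5 ± 11.5 CPM per kb and overlapped Pgk1 at 68.7 ± 8.94. The levels of the tissues were not compared, because the tables were counted apart with different gene lists. Gapdh, for example, had 6 to 51 reads in a pancreas library and 17649 to 24266 in an adipose library, so a read count of a gene in the pancreas table may not stand for the same thing as in the adipose table.

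Among the genes that direct pyruvate and lactate, Pdk4 rose and Slc16a7 fell in both tissues. Pdk4, whose kinase shuts pyruvate out of the mitochondrial pyruvate dehydrogenase complex, rose in the pancreas from 5.15 and 3.69 CPM to 261, 202 and 329 CPM (5.89 ± 0.30, adjusted p = 4.28e-05). In adipose tissue it rose from 53.4, 112.2 and 58.8 CPM to 435, 699 and 584 CPM (2.94 ± 0.34, adjusted p = 0.0016). All OA-AP libraries were far above the controls in both tissues. Slc16a7, the gene of the monocarboxylate carrier MCT2, fell in both, by 1.42 ± 0.17 in the pancreas (adjusted p = 0.000928) and by 1.57 ± 0.18 in adipose tissue (adjusted p = 0.00134) on the log2 scale. Slc16a3, the gene of the lactate exporter MCT4, rose in adipose tissue from 2.40, 2.71 and 2.38 CPM to 12.5, 9.71 and 15.1 CPM (2.31 ± 0.20, adjusted p = 0.000562). Ldhd, a lactate dehydrogenase for the D form, rose in the pancreas by 0.95 ± 0.14 (adjusted p = 0.00202). Over the 18 tested genes of this list, 3 were called higher and 2 lower in the pancreas (27.8%, beside 29.8% of all tested genes), and 3 higher and 3 lower in adipose tissue (33.3%, beside 25.1%).

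Of the other glycolysis enzymes, 1 of 20 tested genes was called higher and 4 lower in the pancreas (25.0%, beside 29.8% of all tested genes), and 3 of 19 higher and 4 lower in adipose tissue (36.8%, beside 25.1%). Beside Pfkm, Pklr, Pfkfb1 and Pfkfb4, Bpgm, which makes the 2,3-bisphosphoglycerate of red cells, rose in the pancreas (0.76 ± 0.16, adjusted p = 0.00964), a call lost without either control library (adjusted p up to 0.099). In the pentose phosphate list H6pd, the glucose 6-phosphate dehydrogenase of the endoplasmic reticulum, rose in the pancreas from 10.2 and 9.57 CPM to 206, 159.9 and 361 CPM (4.61 ± 0.42, adjusted p = 0.000691) and in adipose tissue by 1.40 ± 0.13 (adjusted p = 0.000682). It was the single call among 8 genes of that list in the pancreas (12.5%, beside 29.8% of all tested genes). In adipose tissue 3 of 8 were called (37.5%, beside 25.1%), of which 2 were higher, H6pd and G6pdx (0.91 ± 0.17, adjusted p = 0.00633), and Tkt was lower (-1.15 ± 0.23, adjusted p = 0.00817). Among gluconeogenesis genes Fbp2 fell in the pancreas (-1.78 ± 0.30, adjusted p = 0.00367), the single call of 5. In adipose tissue edgeR and DESeq2 each called 0 of 6, with 1 at an unadjusted p under 0.05 in edgeR, beside 25.1% of all tested genes called by edgeR.

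Among known HIF-1 targets outside glycolysis, calls were mostly to the higher side in both tissues. In the pancreas 12 of 33 tested genes were higher and 3 lower (45.5% called), and in adipose tissue 9 of 34 were higher and 5 lower (41.2%), beside 29.8% and 25.1% of all tested genes. The median change over this list was 0.29 on the log2 scale in the pancreas and 0.11 in adipose tissue. Angptl4, an inhibitor of lipoprotein lipase that also answers to fatty acids, rose in the pancreas from 1.46 and 0.598 CPM to 62.5, 42.1 and 73.8 CPM (5.81 ± 0.41, adjusted p = 0.000182) and in adipose tissue by 1.39 ± 0.19 (adjusted p = 0.00222). Ddit4, an inhibitor of mTORC1, rose in the pancreas from 33.6 and 31.7 CPM to 384, 268 and 586 CPM (3.66 ± 0.36, adjusted p = 0.000704). Bnip3, a mitophagy receptor, rose there by 1.80 ± 0.18 (adjusted p = 0.000373). In adipose tissue the smallest p-values besides Angptl4 belonged to Hmox1, heme oxygenase 1 (2.65 ± 0.21, adjusted p = 0.000451), and Lox, a collagen crosslinking enzyme, at 65.8, 80.2 and 69.5 CPM against 370.3, 867 and 559 CPM (3.06 ± 0.31, adjusted p = 0.0011). Many genes of this list also answer to other signals, and no test of the list was made.

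**Figure D4:**
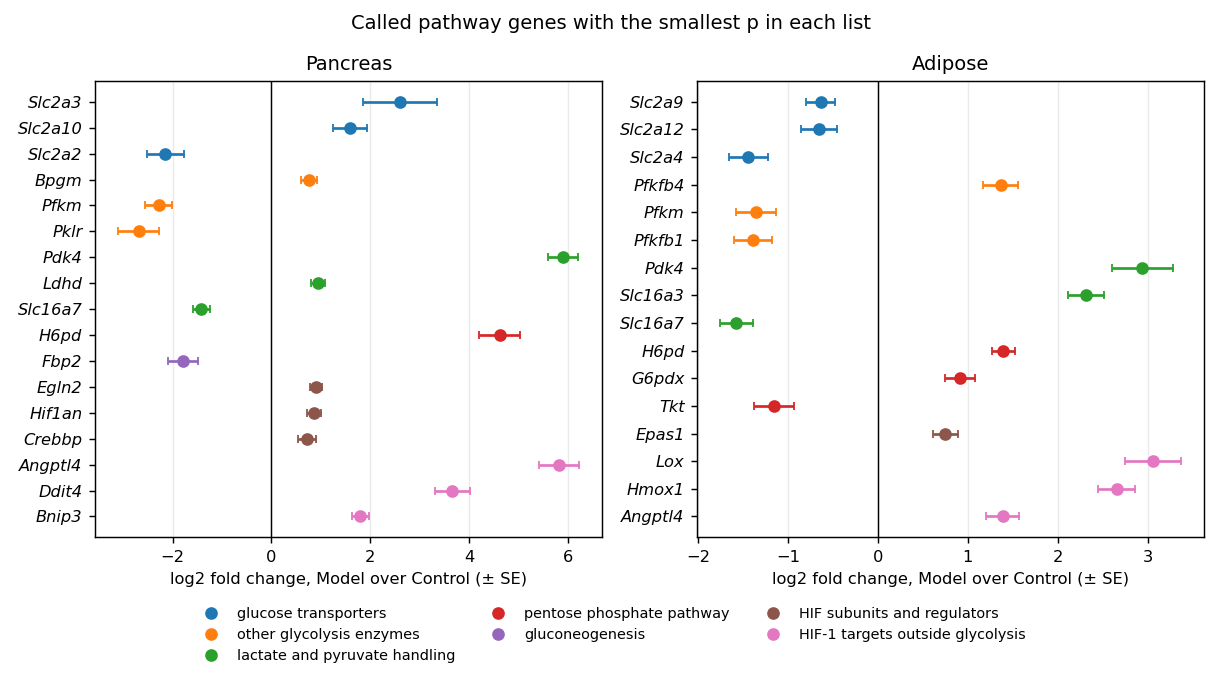
Log2 fold change of OA-AP over control, with bars of 1 SE, for up to 3 called genes with the smallest p-value in each of 7 lists, coloured by list, in the pancreas (left) and adipose tissue (right). Pdk4 at 5.89 and Angptl4 at 5.81 lie farthest to the right in the pancreas, and Lox at 3.06 and Pdk4 at 2.94 in adipose tissue.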

How the data were processed

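Per the labels and the study's methods, the authors trimmed paired-end reads with Trim Galore 0.6.6, checked them with fastp 0.20.1, mapped them with STAR to GRCm38 and counted them per gene with featureCounts 2.0.1. The authors deposited raw whole-number counts in separate tables for pancreas and adipose tissue. The annotation release and strand setting of the counting are not given in the sources used here, and 3441 of the 45260 gene identifiers in both tables carry different symbols, so genes were matched by identifier. A gene length deposited in the pancreas table was used for levels and shares per kb in both tissues. No column of other samples was present (0).

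Libraries were grouped by their labels, and replicates differed by more than counting noise (lowest chi-square per degree of freedom 7.56). edgeR 4.0.16 was run on the counts as deposited in R 4.3.3: filterByExpr, TMM factors, and the robust quasi-likelihood test in each tissue apart, with Benjamini-Hochberg adjustment over all tested genes. The tissue by condition term was tested over the 11 libraries. Log2 fold changes follow edgeR's default prior count. SE is the log2 fold change over the square root of F. Shares were tested with a two-sided exact permutation test over every assignment of the libraries to the groups, with Benjamini-Hochberg adjustment over 18 shares. Since the reads carry no molecular identifiers, read counts overstate independent molecules. Alternatives were DESeq2 1.42.0, its size factors, library totals, TMM factors without acinar genes, no filter or at least 10 counts in every sample, fold thresholds of 2 or none, each library left out, and the replicate block. The fits were checked on simulated counts in which 200 genes were changed.

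Named were the 10 genes, the members of their isozyme families, and in each further list and tissue up to 3 called genes with the smallest p. Some family members are not reported here. Gapdh, Ldhb, the neutrophil genes, Gm10851 and Gm37975 were named after their values were seen. The genes and lists were chosen with earlier results of these data known. The list of 37 HIF-1 targets holds 36 genes, since Ero1a is a synonym of Ero1l.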

Additional observations from a re-analysis of the deposited data

Results flagged for a closer look

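The change of 4 of the 10 genes differed between adipose tissue and pancreas by the tissue by condition test of edgeR at an adjusted p under 0.05. Pfkfb3 differed by -3.20 on the log2 scale, a rise in the pancreas set against a fall in adipose tissue. Slc2a1 differed by 1.78, Pkm by 0.81 and Pgk1 by 0.68, with the larger change in adipose tissue. The neutrophil marker sum of pancreas OA-AP replicate 3 was 102 CPM, against 14.1 and 3.60 CPM in the other two OA-AP libraries. Without that library the differences were -2.90 for Pfkfb3, 2.34 for Slc2a1, 0.94 for Pkm and 0.79 for Pgk1. All 4 still passed, but with each of several other libraries left out instead, Pfkfb3 alone passed. Over 17 alternatives the call held in 17 for Pfkfb3, 9 for Pkm, 7 for Pgk1 and 6 for Slc2a1. The part of neutrophils in these differences was not tested, nor was that of the separate counting of the tissues.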

How the results depend on the processing

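The calls of Ldha in the pancreas, of Hif1a, Slc2a1 and Pfkfb3 in adipose tissue and the tissue difference of Pfkfb3 held under each alternative run for them, and that of Ldha in adipose tissue in each but the 2-fold threshold. Library totals alone gave 58 further pathway genes called in the pancreas against 33, and 2 of the 10 genes with a tissue difference against 4. A 2-fold threshold left Hif1a, Slc2a1 and Pfkfb3, 3 of the 10 genes, and 18 further pathway genes called in adipose tissue, against 6 and 34, by construction. Leaving out 1 library gave 1 to 4 of the 10 genes and 17 to 40 further genes in the pancreas, 5 to 6 and 25 to 39 in adipose tissue, and 1 to 6 tissue differences. The pancreas count of 1, with Ldha alone, came without either control library, as did 20 and 17 further genes without control replicates 1 and 2. Same-numbered control and OA-AP libraries had correlations of their deviations of 0.06 or less, while differently numbered adipose pairs ranged from -0.25 to 0.29. With 2 or 3 libraries per group such deviations are constrained, so the correlations cannot decide whether the numbers pair the libraries. The replicate block gave 3 of the 10 genes in the pancreas and 6 in adipose tissue, with pancreatic Hif1a at 0.38. The pancreas has no control replicate 3, so OA-AP replicate 3 is alone in its block there and adds nothing to the change. That fit is close to the one without OA-AP replicate 3, where Hif1a was 0.33. In the pancreas these fits are therefore not separate alternatives. Same-numbered pancreas and adipose libraries had correlations of 0.090 or less. With them as the replicate block there were 2 tissue differences, those of Pkm (adjusted p = 0.0545) and Pgk1 (adjusted p = 0.0951) being lost. Adipose control replicate 3 had no pancreas library of its number and was alone in its block.

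With library totals the pancreas log2 fold changes were 0.65 for Slc2a1, 0.16 for Hk2, 0.72 for Pfkl, 0.088 for Aldoa and 0.47 for Pkm, that of Aldoa in adipose tissue -0.10, and the tissue differences -0.33 for Hif1a, -0.67 for Hk1, -0.068 for Hk2, -0.47 for Pfkl, -0.18 for Aldoa, -0.16 for Pgk1 and -0.032 for Pkm. Without a filter Slc2a1 was 0.053 and Pfkl 0.067 in the pancreas, and with 10 counts in every sample Pfkl was 0.0013. DESeq2 and its size factors in edgeR each gave -0.022 for Pgk1 there, and the replicate block -0.34 for Hk1, 0.21 for Pfkl and -0.11 for Pgk1. Leaving out 1 library gave ranges in the pancreas of -0.62 to 0.25 for Slc2a1, -0.38 to 0.41 for Hk1, -0.27 to 0.18 for Pfkl and -0.15 to 0.068 for Pgk1, of -0.023 to 0.22 for Aldoa in adipose tissue and of -0.13 to 0.64 for the Hk1 tissue difference. For differences of shares it gave, in percentage points, -0.74 to 0.84 for Hk1 and -0.015 to 10.7 for Hif1a in the pancreas, and -2.05 to 3.46 for Hk1, -4.39 to 3.89 for Hk2 and 0 to 0.012 for Pkm in adipose tissue. The cause of these changes was not tested. Read numbers were low in the pancreas, where Hk1, Hk2, Slc2a1, Pfkl and Pfkfb3 had 24 to 458 reads per library and Hif1a and Pgk1 135 to 584.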
